A study of Homo sapiens with 4 samples.

Results

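The ADAM metalloproteases examined here are ADAM8, ADAM9, ADAM10, ADAM12, ADAM15, ADAM17 and ADAM19. Their members in these data are the skipped-exon events whose middle exon lies inside 1 of these 7 genes on the same strand, by GENCODE release 29 on hg38. This rule, which uses no measured value, found 34 of the 44447 events listed for either cell line, with 28 different exons in 5 genes. No event was listed for ADAM12 or ADAM19, so they are not analysed here. MDA-LM2 (LM2), which the study describes as a lung-metastatic derivative, was set against the line it came from, MDA-MB-231 (parental), an established human breast carcinoma line. Both were untreated and grown in the same medium, and each was labelled with 2 replicates. The deposited files hold 1 table per line, taken as 1 pooled library, so no spread between replicates can be given and intervals cover counting error only.

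ADAMs are membrane-anchored proteases with a propeptide, a zinc-dependent metalloprotease domain, a disintegrin domain, a single membrane-spanning segment and a cytoplasmic tail. ADAM10 and ADAM17 release the outer parts of many membrane proteins, among them NOTCH receptors and ligands of the epidermal growth factor receptor. The tails of ADAM8, ADAM9, ADAM12, ADAM15 and ADAM19 carry proline-rich stretches that bind SH3 domains, and alternative splicing of the ADAM15 tail is known to change which of these stretches are present. ADAM9 is also known in a secreted form that lacks the membrane anchor.

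The exons on which the results turn are shown first, 5′ to 3′ on the coding strand, as read from GENCODE release 29 transcripts. In the tail exons the capitals mark in-frame CCN codons, which all encode proline, and the ADAM10 exon has none. The ADAM15 exons lie on chromosome 1 (exon 19 at chr1:155060763-155060832, exon 20 at chr1:155061415-155061489 and exon 21 at chr1:155061904-155061975, plus strand). The others are exon 22 of ADAM8 (chr10:133263688-133263765, minus strand) and exon 7 of ADAM10 (chr15:58643886-58643978, minus strand). Exon numbers are those of the principal transcript of each gene.
ADAM15 exon 19: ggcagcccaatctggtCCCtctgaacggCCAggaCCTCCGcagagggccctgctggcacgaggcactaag
ADAM15 exon 20: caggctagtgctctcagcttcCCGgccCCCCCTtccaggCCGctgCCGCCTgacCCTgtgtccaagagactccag
ADAM15 exon 21: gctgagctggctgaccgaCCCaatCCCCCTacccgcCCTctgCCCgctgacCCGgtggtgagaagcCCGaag
ADAM8 exon 22: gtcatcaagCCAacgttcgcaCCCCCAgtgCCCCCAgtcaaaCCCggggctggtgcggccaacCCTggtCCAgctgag
ADAM10 exon 7: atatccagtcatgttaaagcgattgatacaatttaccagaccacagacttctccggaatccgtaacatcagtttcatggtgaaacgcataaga

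These tail exons were rich in proline codons. Exon 20 of ADAM15 held 7 CCN codons among 25, exon 21 held 7 among 24, and exon 22 of ADAM8 held 8 among 26. Of the 1493 coding skipped exons of 60 to 90 nt that entered the comparison, 0.536% had 7 or more. Pairs of such codons with 2 codons between them, CCN followed by NNNNNN and CCN, read in frame on the coding strand with overlaps counted, occurred 4 times in exon 20, 3 times in exon 21 and 3 times in exon 22 of ADAM8. One or more such pairs occurred in 9.85% of the 1493 exons, and 3 or more in 0.603%. Exons 20 and 21 of ADAM15 and exon 22 of ADAM8 are themselves among the 1493. Exon 19 of ADAM15 held 4 CCN codons and 1 pair. The short form of exon 20, which lacks its first 3 bases, has the same length as exon 21, 72 nt, and the 2 were identical at 38 of 72 positions (52.8%) without gaps. A match of these letters is a description and not a binding site.

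The data are inclusion levels, the fraction of isoforms that hold the exon as estimated by MISO, each with the interval the authors deposited, and reads in 4 classes. A read can fit the isoform with the exon (inclusion read), the isoform without it (exclusion read), both, or neither. LM2 had 68691146 reads at 39981 listed events and parental cells 89285093 at 43626, of which 74.7% and 75.7% fit neither isoform. To enter the comparison an exon needed 10 or more inclusion and exclusion reads together in LM2 and in parental cells, and both kinds present somewhere. It was called when the deposited Bayes factor, the odds of a difference over none, reached 10 and the levels lay 0.2 or more apart. Of 6 marker genes of the line, KRT8, CD44 and EGFR were measured. KRT8 had 6187 isoform-fitting reads in LM2 and 5877 in parental cells at the event with most of them. By all reads at the best covered event, scaled to the reads listed for each line, EGFR was past 2-fold higher in LM2 (ratio 2.32). KRT8 stood at 1.67 and CD44 at 0.952. Of 12 markers of other cell types, 4 were measured. By all reads at the event, 3 of these 4 were past 2-fold lower in LM2. Over all 10137 genes measured, 9.97% were past 2-fold lower and 2.50% higher. For these 4 markers, reads that fit an isoform, taken at the event with most of them, were few. ESR1, the oestrogen receptor, had 322 reads in LM2 and 1158 in parental cells, and 1 fitting read in each. GATA3, a luminal transcription factor, had 83 and 422 reads, with 13 and 57 fitting. The leukocyte gene PTPRC had 22 and 63 reads, with 5 and 2 fitting. The epithelial cadherin CDH1, with 38 and 65 reads and with 11 and 13 fitting, was not past 2-fold. Their part in the results was not tested.

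Of the ADAM exons compared between LM2 and parental cells, 1 in ADAM10 was called lower in LM2 and the others were not called. Of 28 exons, 17 entered the comparison, and by the authors' deposited table LM2 was lower at 1 of them, higher at 0 and uncalled at 16. Over all 14109 exons that entered, 1.25% were called in either direction, with 0.921% higher and 0.326% lower. At a smaller difference of 0.1 the same 1 ADAM exon was called, against 2.07% of all exons. The median difference over the 17 exons was -0.01 and that over all exons 0, with 10 ADAM exons below 0, 5 above 0 and 2 at 0. Leaving out the called exon, differences ran from -0.13 to 0.06, and no Bayes factor in the authors' deposited table exceeded 0.97. Deposited intervals of the lines did not overlap for 1 of the 17 exons, against 3.23% of all exons. A two-sided Fisher's exact test on the inclusion and exclusion reads, adjusted over all 14109 exons by Benjamini-Hochberg, called 0 of the 17. This test sets 1 pooled library against the other, not line against line, and it called 0.680% of all exons with a read-based difference of at least 0.1. No ADAM exon reached an unadjusted p of 0.05 in this exact test, the smallest being 0.0599 (adjusted p = 0.708).

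**Figure D1:**
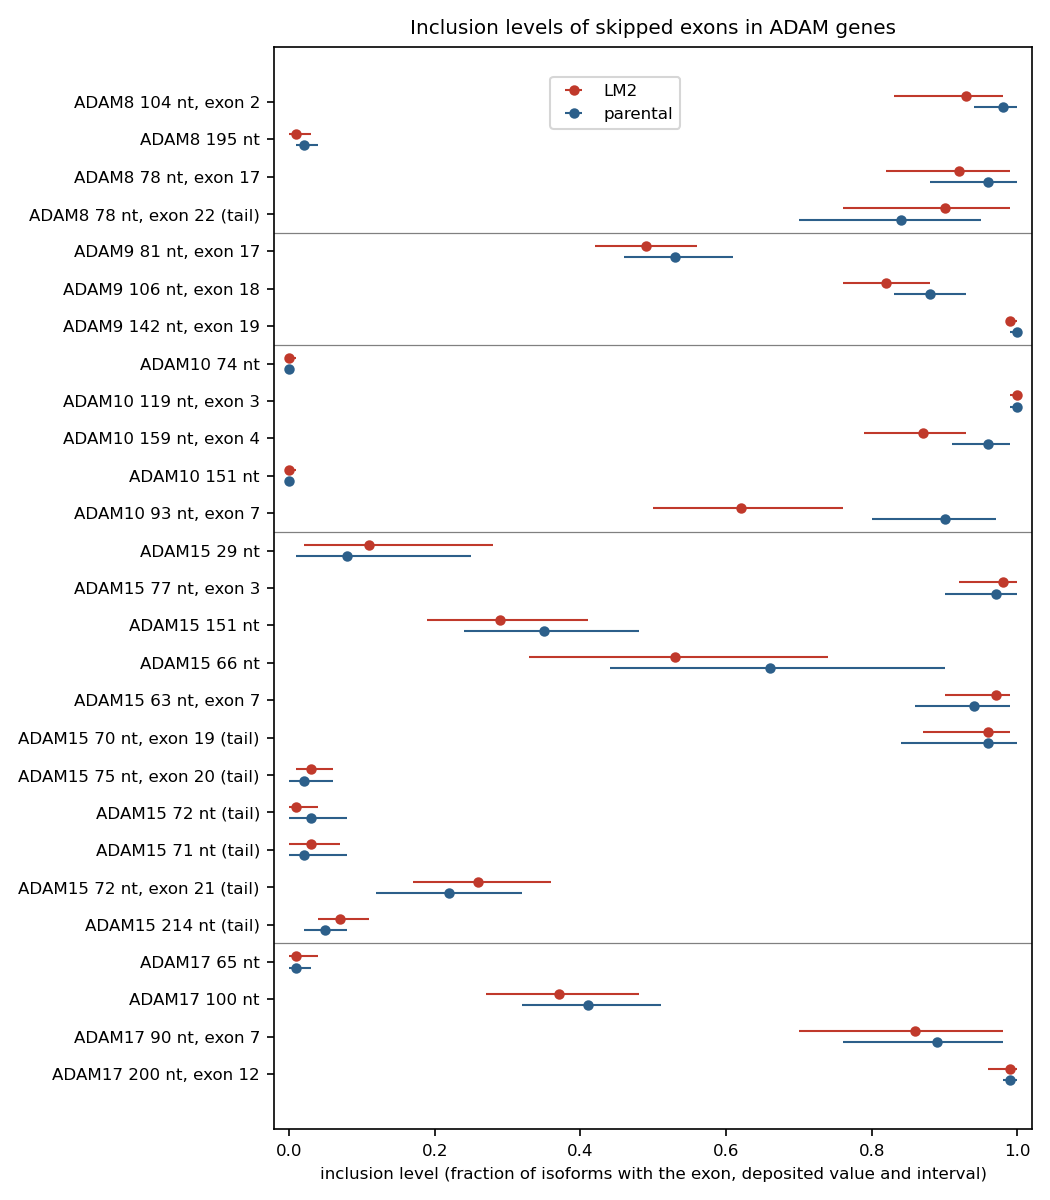
Inclusion level (x axis, fraction of isoforms) of the 27 exons measured in both lines, 1 row per exon ordered along each gene, with LM2 in red above parental cells in blue; points are deposited levels and lines the deposited intervals. The intervals of exon 7 of ADAM10 stand apart, at 0.62 in LM2 and 0.90 in parental cells.

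The called exon was in ADAM10, the sheddase of NOTCH receptors and many adhesion proteins (ENSG00000137845). Exon 7 has 93 nt, keeps the reading frame and encodes residues 246 to 276 of 748, ahead of the zinc-binding signature of the protease, which starts at residue 383. Its inclusion level was 0.62 (interval 0.50 to 0.76) in LM2 and 0.90 (0.80 to 0.97) in the parental line, and the authors' deposited table gives a difference of -0.28 and a Bayes factor of 31.54. The reads behind it were 97 inclusion, 1 exclusion, 429 both and 968 neither in LM2, against 235, 0, 716 and 1554 in parental cells. Reads joining exon 6 to exon 8 were thus nearly absent in both lines, and a level from those 2 read classes only (inclusion reads divided by 2, over that plus exclusion reads) was 0.980 in LM2 against 1 in parental cells. Inclusion reads set against reads that fit both isoforms, which lie in the outer exons, did differ. There were 22.6 inclusion reads per 100 such reads in LM2 and 32.8 in parental cells, a ratio of 0.69 (exact 95% interval 0.52 to 0.90). Over all 14109 exons that interval lay below 1 for 3.89% and above 1 for 9.11%, and exon 7 was the 1 ADAM exon of 17 whose interval excluded 1. With 0 exclusion reads in parental cells, an exclusion share of up to 1.28% of informative reads is allowed there.

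The other exons of ADAM10 stood near full use or near full skipping in both lines. Exon 4 (159 nt, residues 109 to 162, in frame) was at 0.87 (0.79 to 0.93) in LM2 and 0.96 (0.91 to 0.99) in the parental line. Inclusion reads numbered 594 in LM2 and 1129 in parental cells, exclusion reads 4 and 2. The authors' deposited table gives it a Bayes factor of 0.97, so it was not called. Its inclusion reads per 100 reads that fit both were 107 in LM2 and 116 in parental cells, a ratio of 0.92 (0.80 to 1.07). Exon 3 (119 nt), whose loss would shift the frame, was at 1 in both lines, with 725 inclusion reads in LM2 and 1371 in parental cells, and 0 and 1 exclusion reads. A 151-nt exon between exons 4 and 5 and a 74-nt exon between exons 2 and 3 were at 0 in both lines. Skipping of the 151-nt exon was seen in 270 reads of LM2 and 451 of parental cells, and skipping of the 74-nt exon in 407 and 685. The 151-nt exon had 2 inclusion reads in LM2 and 0 in parental cells, and the 74-nt exon had 0 in each.

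**Figure D2:**
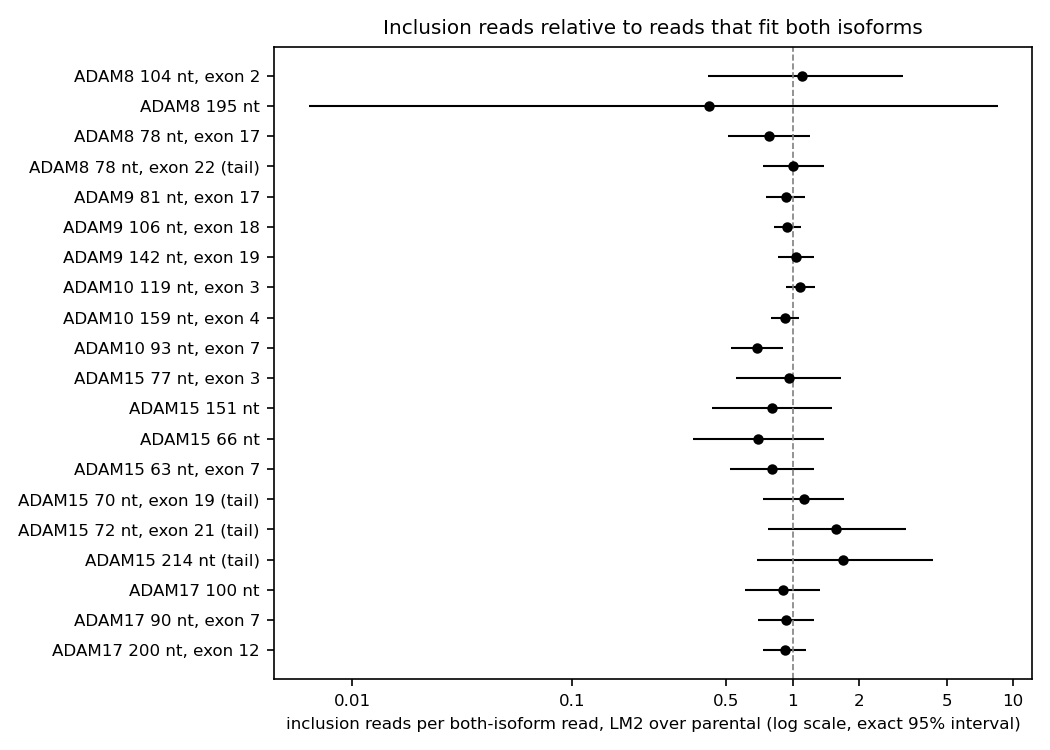
Ratio between lines of inclusion reads per read that fits both isoforms (x axis, LM2 over parental, log scale) for exons with inclusion reads in both lines, 1 row per exon; points are ratios and lines exact 95% intervals. Exon 7 of ADAM10 lies at 0.69 with an interval below 1, and every other interval shown includes 1.

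ADAM15 (ENSG00000143537, chromosome 1), also called metargidin, binds integrins through its disintegrin domain and had 18 of the 34 events. Its tail is encoded by exons that follow the membrane-spanning segment, placed here at residues 694 to 712 of 863 as the most hydrophobic stretch of 19 residues. Exon 19 (70 nt, residues 736 to 759) was used almost always, at 0.96 in both lines in the event that joins exon 18 to exon 22 (LM2 interval 0.87 to 0.99, parental interval 0.84 to 1). Inclusion reads numbered 78 in LM2 and 70 in parental cells with no exclusion read in either, which allows an exclusion share of up to 3.85% in LM2 and 4.29% in parental cells. A second event for exon 19, which ends at the short form of exon 20, was also at 0.96 in both lines, with 56 inclusion reads in LM2 and 58 in parental cells. Without exon 19 the annotated frame shifts, and the protein would end after 780 residues.

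The tail exons after it had low levels in both lines in the events that run from exon 19 to exon 22. Exon 20 (75 nt, residues 760 to 784) was at 0.03 (0.01 to 0.06) in LM2 and 0.02 (0 to 0.06) in the parental line between exons 19 and 22, with 2 inclusion reads in LM2 and 0 in parental cells. Its short form of 72 nt was at 0.01 in LM2 and 0.03 in parental cells, with 0 and 1 inclusion reads. Exon 21 (72 nt, residues 785 to 808) was at 0.26 (0.17 to 0.36) in LM2 and 0.22 (0.12 to 0.32) in the parental line. Its reads were 27 inclusion, 22 exclusion, 102 both and 250 neither in LM2, against 17, 12, 101 and 241 in parental cells. Of the events between exons 19 and 22, that of exon 21 had the highest level. Its odds of inclusion over exclusion reads differed between libraries by a ratio of 0.87 (exact 95% interval 0.31 to 2.41). That interval is wide enough for a change of 2-fold in either direction. A longer version of exon 21, of 214 nt, was at 0.07 (0.04 to 0.11) in LM2 and 0.05 (0.02 to 0.08) in the parental line. Exons 20 and 21 and their longer or shorter forms share the same exclusion reads, the 22 in LM2 and 12 in parental cells that join exon 19 to exon 22, so their levels are not independent. Reads that cross from exon 20 to exon 21 fit neither isoform of these events. A level there is thus not a measure of how often exon 20 or exon 21 is skipped.

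Further ADAM15 tail events rested on few reads. Exon 20 between exons 19 and 21 was at 0.40 (0.10 to 0.77) in LM2 and 0.35 (0.14 to 0.65) in the parental line, from 3 inclusion and 3 exclusion reads in each. Its short form in the same place was at 0.22 (0.04 to 0.63) in LM2 and 0.41 (0.20 to 0.76) in the parental line, from 1 inclusion read against 4 and 3 exclusion reads in each. Exon 21 after the short form of exon 20 was at 0.46 (0.27 to 0.68) in LM2 and 0.29 (0.16 to 0.47) in the parental line, with 25 inclusion reads in LM2, 17 in parental cells and no exclusion read in either. A noncoding exon of 71 nt between them was at 0.03 and 0.02 and had neither inclusion nor exclusion reads. An 80-nt noncoding exon between exons 19 and 20 was listed in LM2 only, at 0.28 (0.03 to 0.67), with 0 inclusion and 2 exclusion reads. The short form of exon 20 between exons 18 and 22 was at 0.02 in both lines, again with neither kind of read, and the 214-nt version of exon 21 after the short form of exon 20 at 0.08 in LM2 and 0.06 in parental cells, with 14 and 10 inclusion reads. All these intervals of LM2 and parental cells overlap where both lines were listed.

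**Figure D3:**
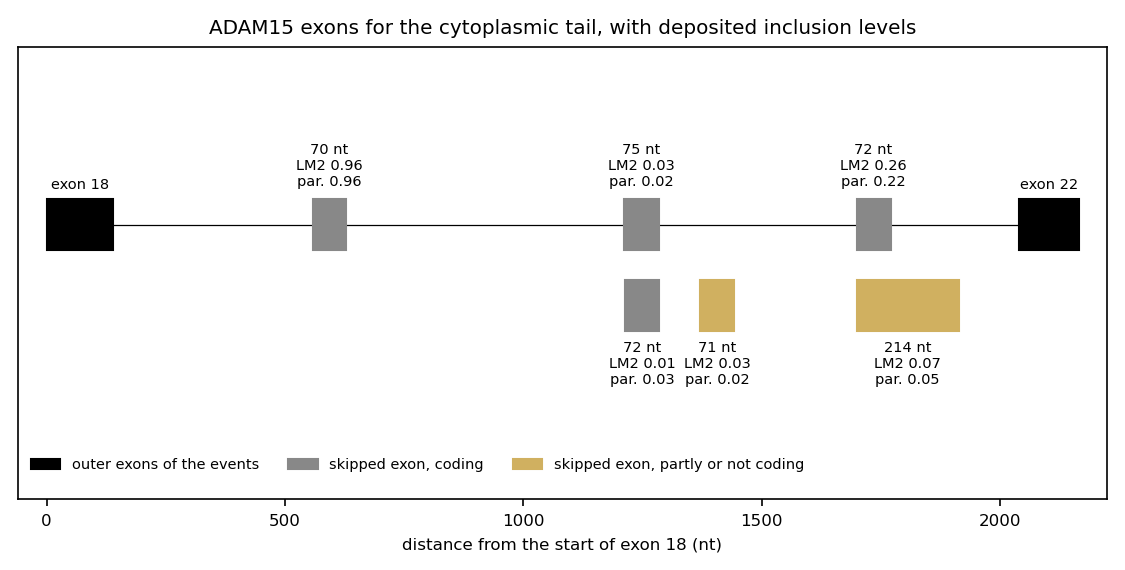
Map of the ADAM15 exons between exon 18 and exon 22 (x axis, distance in nt from the start of exon 18), drawn to scale with the deposited inclusion level of each in LM2 and in parental cells (par.); the lower row holds forms that are not in the principal transcript, and the 80-nt exon listed in LM2 only is not drawn. Exon 19 stands at 0.96 in both lines. In their events between exons 19 and 22, exon 20 stands at 0.03 and 0.02 and exon 21 at 0.26 and 0.22.

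Outside the tail, ADAM15 showed 1 exon with 3 start positions. The 63-nt form of exon 7 (residues 205 to 225) was at 0.97 (0.90 to 0.99) in LM2 and 0.94 (0.86 to 0.99) in the parental line, with 71 inclusion reads in LM2 and 76 in parental cells, and 0 and 1 exclusion reads. By the annotation the other forms are noncoding. A form with 3 more bases (66 nt) was at 0.53 (0.33 to 0.74) in LM2 and 0.66 (0.44 to 0.90) in the parental line, with 21 and 26 inclusion reads, and a form of 151 nt at 0.29 (0.19 to 0.41) and 0.35 (0.24 to 0.48), with 27 and 29. The 3 forms share their end and part of their reads, so reads inside the shared part fit each of them. Exon 3 (77 nt, which would shift the frame) was at 0.98 in LM2 and 0.97 in parental cells, with 111 and 102 inclusion reads and no exclusion read. A 29-nt exon between exons 1 and 2 was at 0.11 (0.02 to 0.28) in LM2 and 0.08 (0.01 to 0.25) in the parental line, with 0 inclusion reads in each and 4 exclusion reads in LM2 against 7.

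ADAM8 (ENSG00000151651, chromosome 10), a protease of leukocytes and many tumours, had 1 skipped exon in its tail. Exon 22 (78 nt, residues 774 to 799, in frame) was at 0.90 (0.76 to 0.99) in LM2 and 0.84 (0.70 to 0.95) in the parental line. Inclusion reads numbered 88 in LM2 and 92 in parental cells, exclusion reads 0 and 1. Per 100 reads that fit both, LM2 had 8.83 inclusion reads and parental cells 8.76, a ratio of 1.01 (exact 95% interval 0.73 to 1.38). By its deposited levels, this proline-rich exon was included in most transcripts in both lines. No like statement can be made for exons 20 and 21 of ADAM15, whose levels do not measure how often they are skipped.

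Near the start of the ADAM8 protein, exon 2 (104 nt) had the lowest exact p of the ADAM exons, given above. It was at 0.93 (0.83 to 0.98) in LM2 and 0.98 (0.94 to 1) in the parental line, with 88 inclusion reads in LM2 and 140 in parental cells, and 3 and 0 exclusion reads. Without exon 2 the annotated frame shifts, and the protein would end after 109 residues in place of 824. A 195-nt coding exon between exons 2 and 3 was skipped in both lines, at 0.01 in LM2 and 0.02 in parental cells, with 1 inclusion read in LM2 and 4 in parental cells, and 66 and 97 exclusion reads. Exon 17 (78 nt, residues 596 to 621) was at 0.92 (0.82 to 0.99) in LM2 and 0.96 (0.88 to 1) in the parental line, with 69 and 89 inclusion reads and no exclusion read in either.

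ADAM9 (ENSG00000168615, chromosome 8), a widely expressed member with a proline-rich tail, had 3 exons around its membrane anchor. The hydrophobic stretch lies at residues 700 to 718 of 819 and is encoded by exon 19. Exon 18 (106 nt, 39082968 to 39083073, residues 655 to 690) was at 0.82 (0.76 to 0.88) in LM2 and 0.88 (0.83 to 0.93) in the parental line. Inclusion reads numbered 633 in LM2 and 770 in parental cells, exclusion reads 14 and 10, and the ratio of inclusion odds was 0.59 (exact 95% interval 0.23 to 1.43), which includes 1. By the annotation a transcript without exon 18 shifts its frame, ends after 655 residues and does not encode the hydrophobic stretch. Those 14 and 10 reads are the measured joins of exon 17 to exon 19.

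The exons on either side of exon 18 were also close between lines. Exon 19 (142 nt, 39090047 to 39090188) was at 0.99 (0.99 to 1) in LM2 and 1 (0.99 to 1) in the parental line, with 1251 inclusion and 1 exclusion read in LM2 against 1427 and 0. Exon 17 (81 nt, in frame, residues 628 to 654) was at 0.49 (0.42 to 0.56) in LM2 and 0.53 (0.46 to 0.61) in the parental line, from 212 inclusion reads in LM2 and 246 in parental cells, and 2 and 0 exclusion reads. The event for exon 17 joins exon 16 to exon 19 and its inclusion isoform joins exon 17 to exon 19 without exon 18, so reads that cross from exon 17 to exon 18 fit neither of its isoforms. A level near 0.5 there is not a measure of how often exon 17 is skipped.

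ADAM17 (ENSG00000151694, chromosome 2), the convertase of tumour necrosis factor and the main sheddase of several growth factors, gave no exon that could enter the comparison, since none had both inclusion and exclusion reads. Exon 12 (200 nt, residues 449 to 515) was at 0.99 in both lines, with 462 inclusion reads in LM2 and 664 in parental cells. With no exclusion read in either, an exclusion share of up to 0.649% is allowed in LM2 and 0.452% in parental cells. Exon 7 (90 nt, residues 252 to 281, in frame) was at 0.86 (0.70 to 0.98) in LM2 and 0.89 (0.76 to 0.98) in the parental line, with 122 and 170 inclusion reads and no exclusion read. A 100-nt form of exon 7 was at 0.37 (0.27 to 0.48) in LM2 and 0.41 (0.32 to 0.51) in the parental line, with 56 and 81 inclusion reads and no exclusion read. Both forms share their end and outer exons, so reads inside the shared part fit each of them and their levels are not independent. A 65-nt noncoding exon upstream of exon 2 was at 0.01 in both lines, with 0 inclusion reads and 46 exclusion reads in LM2 against 51. No event of ADAM17, ADAM9 or ADAM10 tested an exon wholly within the coding part of the tail.

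Reads at the best covered event of each gene, scaled to the reads listed for each line, give a view of transcript amount. ADAM10 was lower and ADAM15 higher in LM2 in both ways of counting reads and at every event with a ratio, all by less than 2-fold. The scaled ratios over the events of a gene ran from 0.725 to 0.818 for ADAM10 and from 1.21 to 1.53 for ADAM15. ADAM10 had 3797 reads in LM2 and 6134 in parental cells, a ratio of 0.805 (exact 95% interval 0.772 to 0.838), and 0.642 (0.597 to 0.691) from the reads that fit at least 1 isoform, taken at the event with most such reads and scaled to their total. ADAM15 had 721 reads in LM2 and 712 in parental cells, a ratio of 1.32 (1.19 to 1.46), and 1.29 (1.06 to 1.58) from fitting reads. ADAM8 had 1581 in LM2 and 1616 in parental cells, a ratio of 1.27 (1.19 to 1.36), and 1.19 (1.09 to 1.29) from fitting reads, but its event ratios ran from 0.883 to 1.27, so its direction depended on the event. ADAM9 had 5222 in LM2 and 5503 in parental cells, a ratio of 1.23 (1.19 to 1.28), but 1.07 (0.996 to 1.14) from fitting reads. ADAM17 had 1401 in LM2 and 1682 in parental cells, a ratio of 1.08 (1.01 to 1.16), and 0.892 (0.805 to 0.987) from fitting reads, so its direction depended on the reads counted. None of the 5 genes passed 2-fold, against 12.5% of 10137 genes, and the median gene stood at -0.12 on the log2 scale. Fewer cells of a kind and less RNA per cell cannot be told apart in such libraries.

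**Figure D4:**
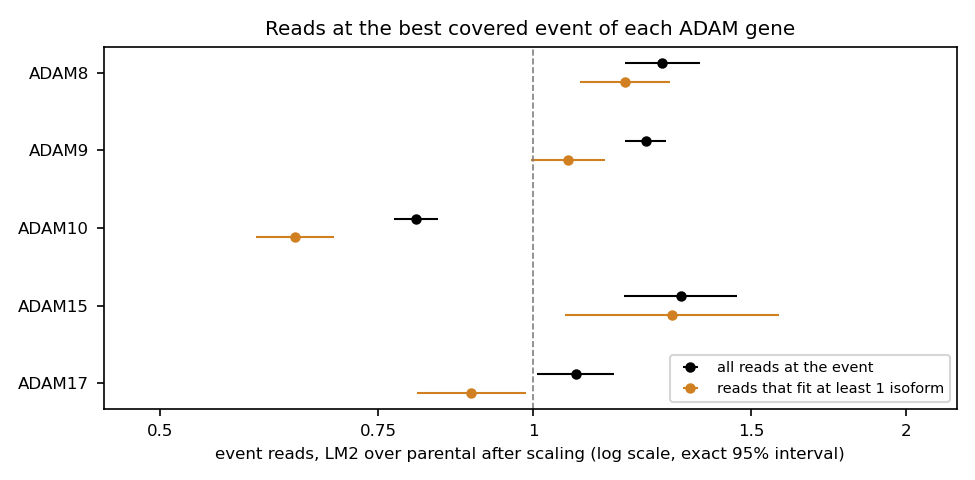
Ratio of reads at the best covered event of each ADAM gene (x axis, LM2 over parental after scaling, log scale) from all reads (black) and from reads that fit at least 1 isoform (orange), each at the event with most such reads; lines are exact 95% intervals. ADAM10 lies below 1 in both counts, ADAM8 and ADAM15 above 1, and ADAM17 on either side.

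Of 122 exons of genes linked to these proteases, 2 were called higher and 0 lower, where 1.25% of all 14109 exons were called. The list for their maturation, traffic and inhibition includes the inactive rhomboids RHBDF1 and RHBDF2 and the TIMP inhibitors. Of its 20 genes, 7 had an exon that entered the comparison, and 0 of 16 exons were called. Among the TIMP inhibitors only TIMP1 had measured event reads. None of 44 exons of SH3 and other tail-binding partners was called, and none of 2 exons of other ADAM and ADAMTS genes. Of 50 exons of shed substrates 1 was higher, a 63-nt exon of the hyaluronan receptor CD44, at 0.99 (0.98 to 1) in LM2 and 0.64 (0.61 to 0.68) in the parental line. Exclusion reads of that exon were 4 in LM2 and 3 in parental cells, beside 2696 and 1794 inclusion reads. Of 10 exons of integrins and other binding receptors 1 was higher, a 130-nt exon of the laminin receptor subunit ITGA6, at 0.85 (0.84 to 0.86) in LM2 and 0.63 (0.61 to 0.65) in the parental line. Here the balance of inclusion to exclusion reads differed as well as the level. There were 4787 inclusion and 649 exclusion reads in LM2 beside 1787 and 774 in parental cells. Fisher's exact test on reads, applied as above to the pooled libraries, called 3 of the 50 exons of shed substrates. It called 1 of the 10 exons of integrins and binding receptors and none in the other lists, against 0.680% of all exons. The median differences of these lists were 0 to 0.01. At the level of event reads, 1 of 14 measured maturation genes was past 2-fold higher and 1 lower, where 2.50% of all genes were higher and 9.97% lower. PCSK6, a proprotein convertase, had 486 reads in LM2 and 113 in parental cells (ratio 5.59, 4.55 to 6.92), and RECK, a membrane-bound protease inhibitor, 69 and 199 (0.451, 0.338 to 0.595). Fitting reads were few, 39 in LM2 and 2 in parental cells for PCSK6 and 2 and 17 for RECK.

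Among 28 measured shed substrates 2 were past 2-fold higher and 5 lower in LM2. NRG1, the ligand neuregulin 1, had 60053 reads in LM2 and 12132 in parental cells, a ratio of 6.43 (6.31 to 6.56), and 5.60 (5.28 to 5.94) from reads that fit at least 1 isoform. The receptor kinase MERTK had 3124 and 1388 (2.93, 2.75 to 3.12). Lower in LM2 were the tumour necrosis factor receptor TNFRSF1B, with 44 reads against 235 (0.243, 0.172 to 0.337) of which 2 and 20 fit an isoform, and the chemokine CX3CL1, with 56 against 241 (0.302, 0.222 to 0.405). EGF, the epidermal growth factor precursor, had 50 reads in LM2 against 228 (0.285, 0.206 to 0.389), but 0.469 (0.192 to 1.05) from 9 fitting reads in LM2 against 24, an interval that includes 1. Also lower in LM2 were the receptor kinase ERBB2, with 291 reads against 894 (0.423, 0.369 to 0.483), and the endocytic receptor LRP1, with 91 against 343 (0.345, 0.271 to 0.436). MERTK, ERBB2 and LRP1 fall outside the naming rule and were named after their values were seen. None of 21 measured tail-binding partners was past 2-fold. Of 5 integrins and binding receptors, ITGA6 was past 2-fold higher (2.43, 2.39 to 2.48) and ITGA9 lower (0.266, 0.212 to 0.332). From fitting reads, 21 in LM2 against 53, ITGA9 stood at 0.495 (0.284 to 0.835). Of 8 other ADAM and ADAMTS genes ADAM29 was lower, with 35 reads in LM2 against 170, of which 2 and 8 fit an isoform.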

How the data were processed

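ScriptSeq v2 libraries were made from total RNA treated with DNase, per the labels' protocols. Reads were aligned with STAR 2.7 to hg38, per the submitters' processing notes, and skipped exons quantified with MISO, per the file headers. For MISO's version and settings, and for how replicates were combined, the sources used here give nothing. The deposited inclusion level is a fraction from 0 to 1, the deposited Bayes factor is a ratio, and the authors' difference is a score that equalled LM2 minus parental in every event. Raw read counts per class are as deposited.

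The members and gene lists were chosen with earlier results of these data known. Where several events shared a middle exon, the one richest in inclusion and exclusion reads stood for it. Fisher's exact tests were adjusted by Benjamini-Hochberg at 0.05 and checked on simulated reads. The ratios of inclusion to both-isoform reads and the counts of fitting reads were added after the data were seen. Every ADAM exon that entered the comparison was described. Of the listed genes, the rule named called exons and up to 4 genes past 2-fold per list, and 3 further shed substrates were named after their values were seen. Exon sequences and reading frames came from GENCODE release 29 transcripts, and all 28 exons matched an annotated exon. Python 3.11.15, SciPy 1.17.1 and pandas 2.3.3 were used.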

Additional observations from a re-analysis of the deposited data

How the results depend on the processing

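The ADAM10 exon stayed the 1 lower exon, and no ADAM exon became higher, at a difference of 0.1, at Bayes factors of 5 or 20, at 20 reads, with no read minimum (27 exons) and with every event counted. For the ADAM10 exon these settings reuse the same deposited difference and Bayes factor of 31.54, which pass each of them. They are thus no separate support for its call. Fisher's exact test called 0 ADAM exons with no minimum difference and at 20 reads. Read-based levels reduced the ADAM10 difference of -0.28 to -0.02 (-0.03 by length), and the cause was not tested. Over all exons, 205 were higher and 87 lower at a difference of 0.1, 213 and 77 with no read minimum, and 1285 and 549 by the interval of inclusion over both-isoform reads, against 130 and 46. Of 20 gene read ratios under other counts and scalings none passed 2-fold and 2 lay on the other side of 1, both of ADAM17. No paired analysis was possible because the files carry no replicate. Leaving out a replicate was not run for the same reason. Few exclusion reads limit many of these exons, with under 10 over both libraries at 10 of the 17.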
